A study of Mus musculus with 8 samples.

Results

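The endoplasmic reticulum (ER) folding system was described here through 39 listed genes of 24112 genes in the deposited tables: ER chaperones, disulfide isomerases, genes of ER-associated degradation, the stress sensors, the Sec61 channel with its Ssr partners, and the oligosaccharyltransferase. The members were chosen by name and function, with earlier results of these data known. Each Entrez identifier in the tables was matched to its mouse symbol. For comparison, 19 members known as targets of the unfolded protein response were set against 11 translocon and oligosaccharyltransferase members. The other 9 members, among them the sensors Ern1 and Atf6, were taken as induced to a lesser or disputed degree and stand in neither class. Whether the 11 translocon and oligosaccharyltransferase members also respond to unfolded protein was not tested, so they are not a control known to be unresponsive.

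Proteins bound for the cell surface, granules or secretion enter the ER through the Sec61 channel, receive N-linked glycans from the oligosaccharyltransferase, and fold with the help of chaperones and disulfide isomerases. When unfolded protein accumulates, the sensors IRE1 (encoded by Ern1), ATF6 and PERK start the unfolded protein response, in which spliced XBP1 and cleaved ATF6 switch on genes for chaperones and for degradation. In blood formation, stem cells are known for a low rate of protein synthesis, and granulocyte progenitors and plasma cells for making large amounts of granule or secreted protein.

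The KO group held 4 libraries of cells from Traf6 knockout, Vav-Cre-positive bone marrow, and the WT group held 4 libraries from Traf6 wild-type bone marrow that carried Vav-Cre as well. Traf6 encodes a ubiquitin ligase that relays Toll-like and interleukin-1 receptor signals to NF-κB. In both groups the marrow had been transplanted into mice (strain C57BL/6), and lineage-negative, Sca1-positive, Kit-positive (LSK) cells, which are enriched for stem and progenitor cells, were sorted for RNA sequencing. The Vav promoter drives Cre in blood cells in general, so the deletion was not limited to LSK cells. Nothing in the labels states that each library is a different mouse, so the p-values measure only the spread between libraries, which may be technical.

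Traf6 (Entrez 22034) checked the genotype labels: it had 0.613, 0.818, 0 and 0.00721 RPKM in KO1 to KO4, against 14.9, 3.52, 9.40 and 7.10 RPKM in WT1 to WT4 (RPKM, reads scaled to transcript length and library depth). All KO libraries lay below all WT libraries, with a log2 difference of -2.75 ± 0.53 (SE; limma adjusted p = 0.341), though the gene passed the filter on low values through the WT libraries alone. The estimated depth ran between 22.6 and 30.7 M reads (M, mega) per KO library and between 19.2 and 24.9 M reads per WT library. KO3, KO4 and WT2 stood apart from the rest along the first 3 principal components. KO3 listed 4.44% of the 3943 genes with a mean above 20 RPKM at exactly 0, KO4 1.55% and WT2 1.19%, against 0.507% or less in the other libraries, so a value of 0 is given only as listed at 0. KO3 and KO4 carry another sequencing lane in their labels than the other 6 libraries, which share lane 4. All 12 LSK and stem cell markers passed the filter for testing, with Slamf1 listed at 0 in 3 libraries and Mecom in KO3. Of 14 B and plasma cell genes, 5 (Mzb1, Cd79a, Ms4a1, Pax5 and Igll1) were listed at 0 in all libraries, and 3 (Jchain, Sdc1 and Cd79b) passed it.

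The promoters were read first, because the unfolded protein response acts on known DNA elements. In the RefSeq promoter table (GRCm38.p6, 250 bases before to 50 bases after each start), 31 of the 39 members had an entry. The ER stress response element (ERSE), searched as CCAAT, then 9 bases, then CCACG on either strand, was found in 9 of these 31 promoters (29.0%), against 37 of 27025 promoters of all genes (0.137%). It was found in 8 of 17 unfolded protein response members and in 0 of 8 translocon and oligosaccharyltransferase members. The first class was chosen as known targets of the response, so these shares describe that choice and are not a test. The ninth was in Canx. The following stretches show the element in 6 of the 9 promoters, on the gene's own strand, with the fixed letters of the element in capitals. They were chosen because they hold the element in the forward and the reverse direction, 2 copies in Hsp90b1, and Syvn1, a carrier with a negative log2 difference.
Hspa5, chr2:34772007-34772061, plus strand: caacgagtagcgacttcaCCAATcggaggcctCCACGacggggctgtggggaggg
Hsp90b1, chr10:86705515-86705674, minus strand: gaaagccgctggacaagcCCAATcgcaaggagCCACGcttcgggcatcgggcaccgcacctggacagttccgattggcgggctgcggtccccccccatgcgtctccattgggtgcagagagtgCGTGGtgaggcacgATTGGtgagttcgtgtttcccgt
Calr, chr8:84847057-84847111, minus strand: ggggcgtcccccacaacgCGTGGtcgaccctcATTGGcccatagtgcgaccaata
Pdia6, chr12:17266473-17266527, plus strand: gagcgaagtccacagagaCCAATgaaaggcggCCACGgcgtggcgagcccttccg
Creld2, chr15:88819502-88819556, plus strand: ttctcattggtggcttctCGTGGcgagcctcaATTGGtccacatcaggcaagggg
Syvn1, chr19:6046514-6046568, plus strand: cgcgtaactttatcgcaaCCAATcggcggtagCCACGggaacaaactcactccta

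Calr, Creld2 and Derl3 held the element in the reverse direction, so that its letters read as CGTGG, 9 bases and ATTGG on the gene's strand. Hspa5, Pdia6, Dnajc3, Canx and Syvn1 held it in the forward direction, and Hsp90b1 held 1 copy of each. The elements lay before the annotated start, from base -212 to base -26. A shorter form, ERSE-II (ATTGG, then 1 base, then CCACG), was found before the start of Herpud1 and, 7 bases after the start, in Dnajb11, against 12 of all promoters (0.0444%). The 8-base core TGACGTGG, the element bound by spliced XBP1 and ATF6, was found in Txndc5 and Txndc11, against 193 of all promoters (0.714%). Both genes stand outside the unfolded protein response class, where 0 of 17 promoters held the core. The stretches of Herpud1 and Txndc5 are shown because both genes return in the results.
Herpud1, chr8:94386359-94386405, plus strand: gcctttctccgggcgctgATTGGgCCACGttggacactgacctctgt
Txndc5, chr13:38528027-38528070, minus strand: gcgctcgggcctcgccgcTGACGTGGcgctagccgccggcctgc

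**Figure D1:**
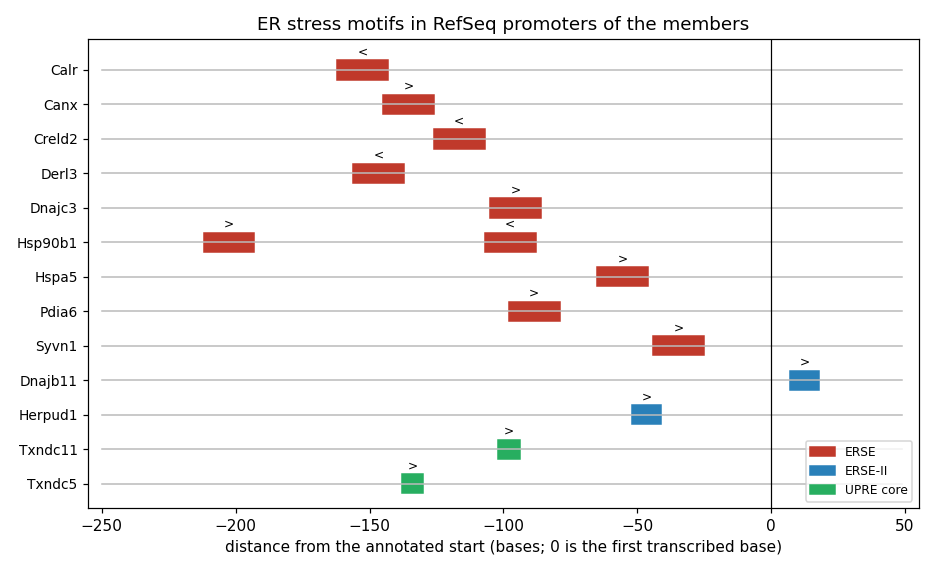
Position of each match to the 3 elements in the 13 member promoters that hold one, in bases from the annotated start (x axis, 0 is the first transcribed base). Coloured blocks are matches, arrowheads give the direction relative to the gene; all ERSE matches lie before the start, and 1 ERSE-II match, in Dnajb11, lies after it.

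The question put to the expression data was whether the ER folding genes differed between Traf6 KO and WT LSK cells. It was also asked whether targets of the unfolded protein response differed more than translocon and oligosaccharyltransferase members. Most members had higher means in KO: of 38 members tested, 29 had a positive and 9 a negative log2 difference, with a median of 0.35 on the log2(RPKM + 1) scale. Over all 11276 genes tested the median was -0.14, and 4398 had a positive difference. None of the 38 members passed the adjusted threshold of 0.05 (limma with Benjamini-Hochberg adjustment over all genes tested, smallest adjusted p = 0.441), and neither did any other gene (0.0% of 11276). At an unadjusted limma p under 0.05, 10 members were higher in KO (26.3% of 38) and 0 were lower. Among all genes tested, 7.51% were at that level, 2.77% higher and 4.74% lower in KO. For 5 members every KO library lay above every WT library, which held for 2.05% of all genes tested, and for 0 members every KO library lay below every WT library (3.88% of all genes). Because the members were chosen with earlier results of these data known, the shares of members are a description and not a test. Derl3, the remaining member, was too low to be tested.

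**Figure D2:**
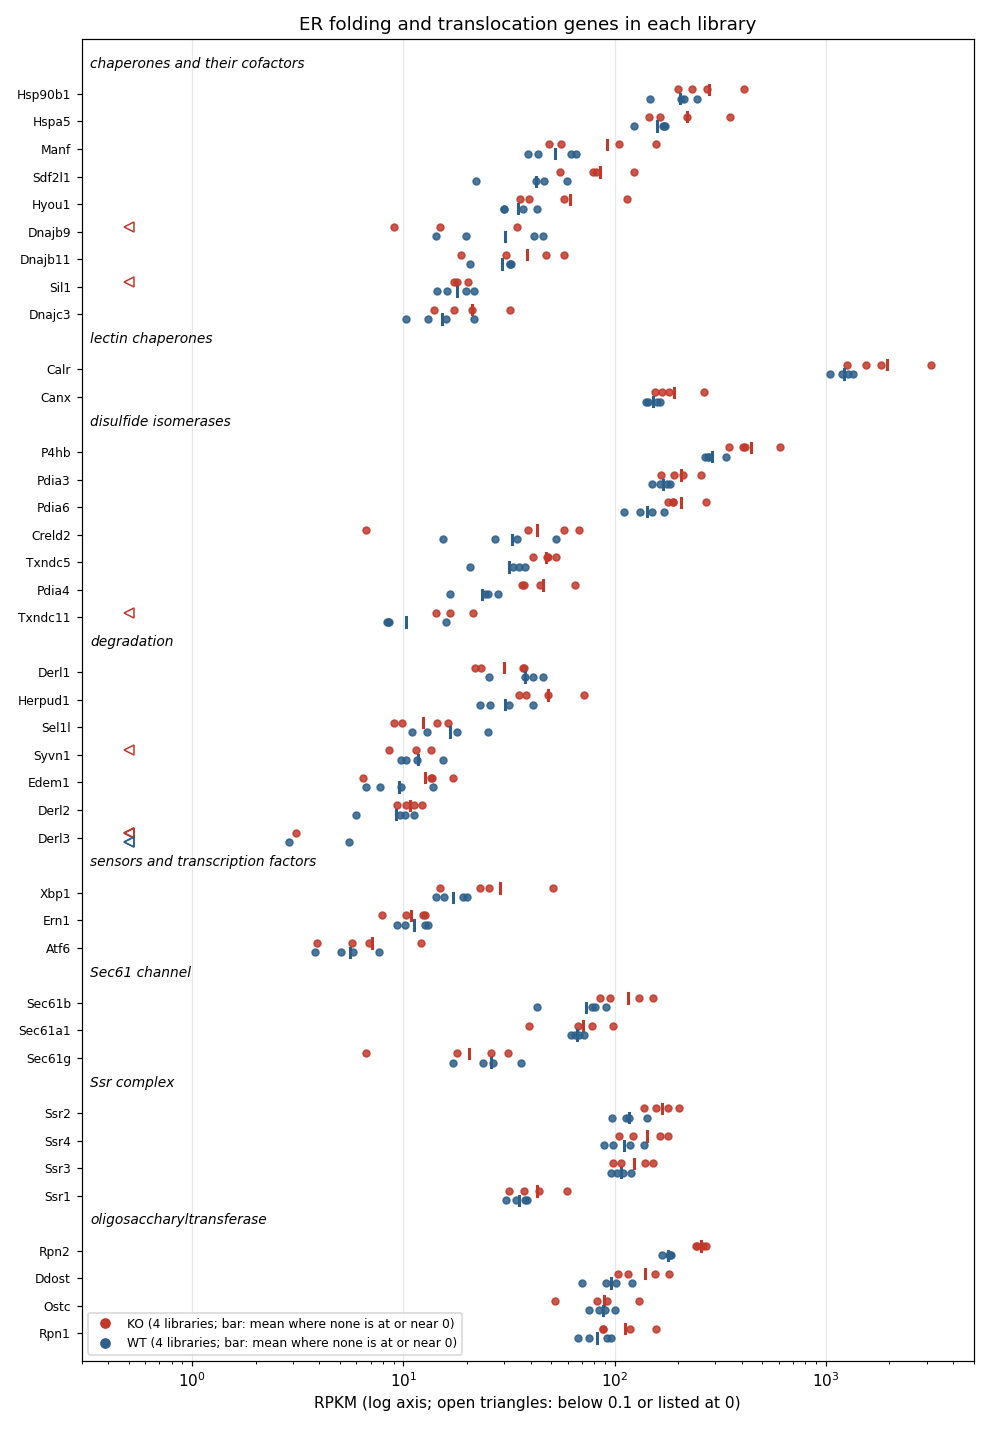
RPKM (x axis, log scale) of each member in the 4 KO libraries (red) and 4 WT libraries (blue), grouped by role, with a bar at the group mean where no library is at or near 0. Calr spans 1262 to 3137 RPKM in KO and 1047 to 1348 RPKM in WT, and the 5 members whose red points all lie right of the blue ones are Rpn2, Pdia4, P4hb, Pdia6 and Txndc5.

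Disulfide isomerases, which form and shuffle the disulfide bonds of folding proteins, held 4 of the 10 members at an unadjusted p under 0.05 and 4 of the 5 members without overlap. This holds for the listed members only: of 12 further oxidative folding genes, 6 were positive and 6 negative, with a median of 0.03. Pdia4 (Entrez 12304) had 64.8, 37.4, 44.2 and 36.4 RPKM in KO1 to KO4, against 24.4, 16.6, 25.2 and 28.01 RPKM in WT1 to WT4. The means were 45.7 ± 13.2 RPKM in KO and 23.5 ± 4.91 RPKM in WT (SD, n = 4 each), and the log2 difference was 0.91 ± 0.26 (SE; limma adjusted p = 0.490; exact permutation p = 0.0286, the smallest that 70 assignments allow). P4hb, the classical protein disulfide isomerase and a subunit of collagen prolyl hydroxylase, had 608, 416, 349 and 406 RPKM in KO, against 267, 276, 278 and 335 RPKM in WT. Its lowest KO library lay just above its highest WT library, WT4, and the log2 difference was 0.59 ± 0.19 (limma adjusted p = 0.561).

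Pdia6, a disulfide isomerase that also acts on IRE1, had 270.5, 189, 179 and 190 RPKM in KO, against 132, 111, 151 and 172 RPKM in WT, and Txndc5 (ERp46), another thioredoxin-domain isomerase, had 52.9, 47.9, 41.1 and 48.5 RPKM in KO, against 37.7, 20.6, 32.9 and 35.1 RPKM in WT. Neither gene's groups overlapped, though for both the lowest KO library lay close to the highest WT library. The log2 differences were 0.54 ± 0.20 for Pdia6 and 0.61 ± 0.23 for Txndc5 (SE; limma adjusted p = 0.627 and 0.634). Pdia3 (ERp57), the isomerase that works with the lectin chaperones on glycoproteins, had 256, 192, 211 and 166 RPKM in KO, against 184, 151, 164 and 178 RPKM in WT, with overlap and a log2 difference of 0.27 ± 0.17. Creld2, a secreted ER stress protein with isomerase activity, differed by 0.12 ± 0.67 and was lowest in KO4 (6.65 RPKM) and highest in KO1 (67.6 RPKM). Txndc11 was highest in KO1 (21.3 RPKM) and listed at 0 in KO3, and its log2 difference of -0.31 ± 0.88 was 0.73 without KO3 and 0.092 after quantile normalization.

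The lectin chaperones hold glycoproteins in the ER until they are folded. Calr (calreticulin), the member of highest level, had 3137, 1825, 1558 and 1262 RPKM in KO, against 1047, 1271, 1194 and 1348 RPKM in WT. KO1, KO2 and KO3 lay above all WT libraries, and KO4 lay within the WT range, below WT2 and WT4. Means were 1945 ± 827 RPKM in KO and 1215 ± 128 RPKM in WT, with a log2 difference of 0.60 ± 0.25 (limma adjusted p = 0.637; exact permutation p = 0.0857). Canx (calnexin), its membrane-bound relative, had 264, 180.0, 168 and 155 RPKM in KO, against 140, 159, 164 and 145 RPKM in WT, with 3 KO libraries above all WT libraries and a log2 difference of 0.31 ± 0.19.

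Chaperones and their cofactors had a median log2 difference of 0.43, with 7 of 9 positive, and 1 of the 9 at an unadjusted p under 0.05. That gene was Sdf2l1, which partners an ER J-domain protein to keep BiP clients soluble and had the highest log2 difference of all members. It had 124, 81.4, 79.0 and 54.9 RPKM in KO, against 22.1, 59.8, 42.2 and 46.4 RPKM in WT, so that only KO4 and WT2 crossed over, with a log2 difference of 1.001 ± 0.33 (limma adjusted p = 0.604; exact permutation p = 0.0571). Hspa5 (BiP), the major ER chaperone and the usual marker of the unfolded protein response, had 351, 221, 165 and 146 RPKM in KO, against 171, 123, 169 and 173 RPKM in WT. KO1 and KO2 lay above every WT library and KO3 and KO4 within the WT range, and the log2 difference was 0.40 ± 0.27 (limma adjusted p = 0.725; exact permutation p = 0.286).

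Hsp90b1 (GRP94), the ER paralogue of Hsp90, had 411, 275, 233 and 200.4 RPKM in KO, against 148, 247, 214 and 206 RPKM in WT, and its log2 difference was 0.43 ± 0.25. KO1 and KO2 were again above the WT range. Hyou1 (the exchange factor GRP170) and Manf (a secreted ER stress protein) had the same shape, with 114 and 158 RPKM in KO1 and log2 differences of 0.66 ± 0.35 and 0.67 ± 0.37. Of the J-domain cochaperones of BiP, Dnajc3 differed by 0.43 ± 0.32 and Dnajb11 by 0.29 ± 0.34. Dnajb9 (ERdj4), which recruits BiP to IRE1 and is among the most specific XBP1 targets, went the other way: it had 9.02, 15.0, 0.0238 and 34.6 RPKM in KO, against 45.7, 41.4, 14.2 and 19.9 RPKM in WT. The groups overlapped widely, and the log2 difference of -1.69 ± 0.97 (limma adjusted p = 0.696) was -0.66 without KO3 and -0.72 with library weights. Sil1, a nucleotide exchange factor of BiP, was between 17.3 and 20.2 RPKM in KO1 to KO3 and listed at 0 in KO4, against 14.4 to 21.5 RPKM in WT. Its log2 difference of -1.02 ± 0.89 was 0.054 without KO4.

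Degradation genes were split in direction, with 3 positive and 3 negative log2 differences and a median of -0.05. The split did not hold in every setting: 5 of the 6 were positive within lane 4, with lane as a covariate, with library weights and without WT2, KO3 and KO4. These settings are not independent. Lane 5 held only KO3 and KO4, so both lane settings give the same differences. Library weights gave KO3 and KO4 low weights (0.137 and 0.351). Herpud1, a scaffold of the ER-associated degradation complex whose promoter holds the ERSE-II shown above, had 37.9, 35.5, 71.8 and 48.6 RPKM in KO, against 25.7, 31.5, 40.9 and 23.1 RPKM in WT. WT3 lay above KO1 and KO2, and the log2 difference was 0.64 ± 0.28 (limma adjusted p = 0.648; exact permutation p = 0.0857). Its highest library was KO3, not KO1. Derl1, a channel component of that complex, had 36.8, 37.3, 21.8 and 23.2 RPKM in KO, against 46.0, 25.4, 37.5 and 41.1 RPKM in WT, a log2 difference of -0.33 ± 0.27 (0.017 within lane 4).

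Sel1l, the partner of the ubiquitin ligase Syvn1 (HRD1), differed by -0.38 ± 0.33, which turned to 0.033 with library weights and 0.16 without WT2, KO3 and KO4. Syvn1 had 13.6, 11.5, 0 and 8.57 RPKM in KO, against 11.6, 15.4, 10.3 and 9.78 RPKM in WT. Its log2 difference of -0.96 ± 0.77 was -0.065 without KO3 and 0.10 within lane 4. Edem1, a lectin that hands glycoproteins to degradation, differed by 0.36 ± 0.38, and Derl2 by 0.22 ± 0.31. Derl3 was listed above 0 in KO1 (3.10 RPKM), WT1 (5.56 RPKM) and WT4 (2.88 RPKM) and at 0 in the other libraries. No member of this role except Herpud1 reached an unadjusted p under 0.05.

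Among the sensors and transcription factors, the RNA of the sensors Ern1 and Atf6 overlapped between groups. Ern1 had 7.92, 10.3, 12.4 and 12.6 RPKM in KO, against 13.04, 9.28, 12.6 and 10.2 RPKM in WT, with a log2 difference of -0.06 ± 0.29 (0.03 after quantile normalization). Atf6 had 6.84, 5.73, 12.1 and 3.92 RPKM in KO, against 7.66, 3.82, 5.04 and 5.79 RPKM in WT, with a log2 difference of 0.25 ± 0.44. Xbp1, the transcription factor whose RNA is spliced by IRE1, had 51.3, 25.3, 15.0 and 23.0 RPKM in KO, against 14.2, 19.1, 15.6 and 20.0 RPKM in WT. KO1, KO2 and KO4 lay above all WT libraries and KO3 lay between WT1 and WT3, and the log2 difference was 0.57 ± 0.35 (limma adjusted p = 0.703). Values per gene do not separate the spliced from the unspliced form of Xbp1.

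Translocon and oligosaccharyltransferase genes had 9 positive and 2 negative log2 differences, with 3 of 11 at an unadjusted p under 0.05. Rpn2 (ribophorin 2), a subunit of the oligosaccharyltransferase, had the smallest p and the smallest SE of all members. It had 271, 245, 263 and 242 RPKM in KO, against 181, 182, 168 and 184 RPKM in WT. The means were 255 ± 14.3 RPKM in KO and 179 ± 7.19 RPKM in WT, the lowest KO library (242) lay well above the highest WT library (184), and the log2 difference was 0.51 ± 0.13 (limma unadjusted p = 0.00351, adjusted p = 0.441; exact permutation p = 0.0286). Ddost, another subunit, had 180.2, 155, 115 and 104 RPKM in KO, against 101, 69.9, 91.5 and 121 RPKM in WT, a log2 difference of 0.52 ± 0.24 with overlap. Rpn1 differed by 0.41 ± 0.23 and Ostc by -0.04 ± 0.26.

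The 4 Ssr genes encode the translocon-associated complex that assists the entry of some proteins, and all 4 had positive differences, between 0.19 and 0.52. Ssr2 had 202, 137, 157 and 178 RPKM in KO, against 114, 96.8, 117 and 142 RPKM in WT, where only KO2 and WT4 crossed over (log2 difference 0.52 ± 0.18; limma adjusted p = 0.627). Ssr4 had 178, 122, 104 and 164 RPKM in KO, against 88.6, 98.6, 118 and 138 RPKM in WT, a log2 difference of 0.35 ± 0.22. Ssr1 differed by 0.25 ± 0.23 and Ssr3 by 0.19 ± 0.19, and Ssr3 turned to -0.057 within lane 4. The 3 subunits of the Sec61 channel did not share a direction. Sec61b had 151, 95.3, 131 and 85.4 RPKM in KO, against 80.5, 77.8, 43.0 and 90.7 RPKM in WT (log2 difference 0.67 ± 0.28; limma adjusted p = 0.637), with only KO4 below WT4. Sec61a1, the channel itself, had 97.8, 77.8, 39.2 and 67.2 RPKM in KO, against 65.0, 71.8, 67.5 and 62.3 RPKM in WT, so that KO libraries were both the highest and the lowest (0.01 ± 0.26, and -0.049 after quantile normalization). Sec61g differed by -0.47 ± 0.44.

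**Figure D3:**
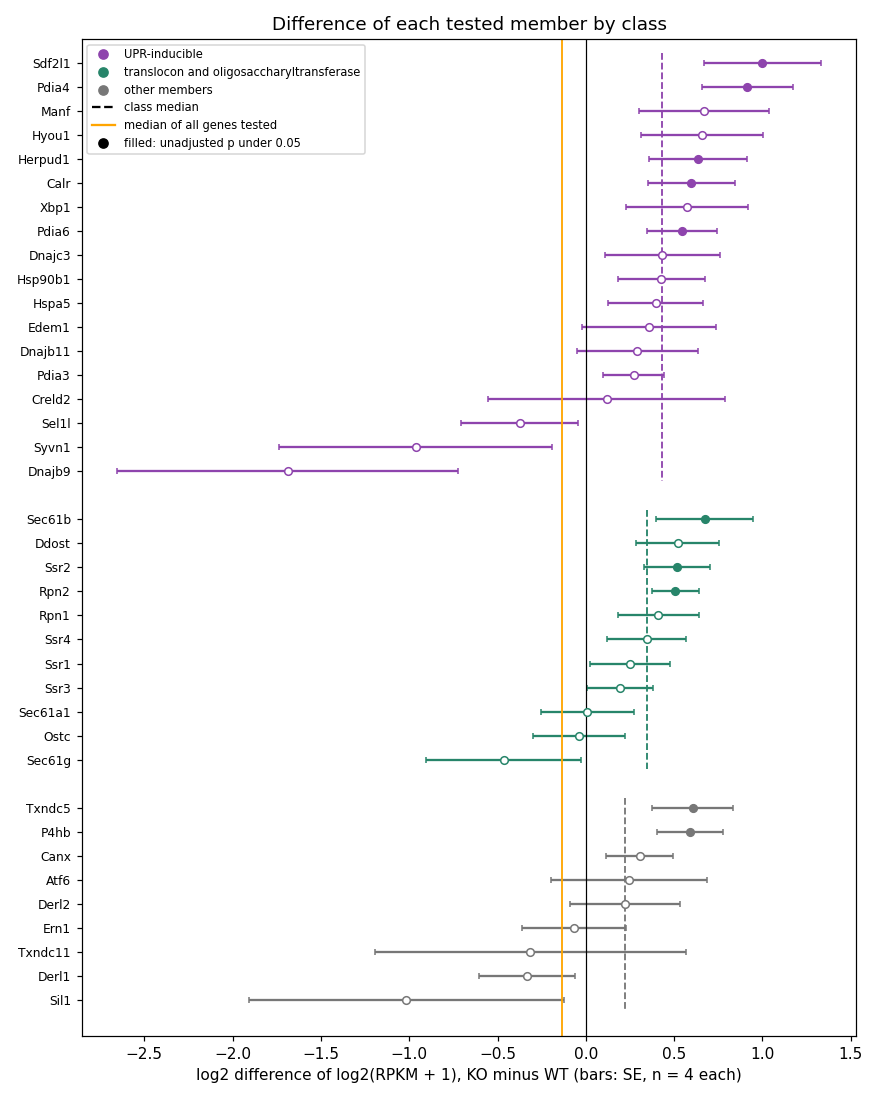
Log2 difference of each tested member (x axis, KO minus WT on the log2(RPKM + 1) scale; bars, SE; n = 4 each) by class, with class medians dashed and the median of all genes tested, -0.14, in orange. The class medians are 0.43 for unfolded protein response members, 0.35 for translocon and oligosaccharyltransferase members and 0.22 for the others; filled points are the 10 members at an unadjusted p under 0.05.

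Both unfolded protein response members and the translocon and oligosaccharyltransferase class had positive median differences. How far apart these were depended on the libraries and settings used. The median log2 difference was 0.43 over 18 tested unfolded protein response members, of which 15 were positive and 5 were at an unadjusted p under 0.05. It was 0.35 over the 11 translocon and oligosaccharyltransferase members. Within that class the median was 0.01 for the Sec61 channel, 0.30 for the Ssr genes and 0.46 for the oligosaccharyltransferase. The class medians of these differences were 0.09 apart. In single libraries, the median level of the first class minus that of the second had an SD of 0.16 within groups. That SD is of 1 library and is not the error of the 0.09. By library, the median level of unfolded protein response members, as log2 from each gene's mean over 8 libraries, was 0.83, 0.27, -0.07 and -0.06 in KO, against -0.37, -0.23, -0.14 and -0.09 in WT. That of the translocon class was 0.54, 0.10, 0.03 and 0.01 in KO, against -0.15, -0.19, -0.25 and 0.03 in WT. For both classes KO1 was far above the rest, KO2 came next, and KO3 and KO4 were within 0.1 of the highest WT library. Without KO1 the class medians were 0.0016 apart. They were 0.17 apart without WT1, 0.19 without KO4 and 0.19 after quantile normalization, 0.24 within lane 4, 0.26 with library weights and 0.27 without WT2, KO3 and KO4, each with the unfolded protein response members higher.

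Members with and without the ERSE had medians close to each other. The 8 tested members with the element had a median log2 difference of 0.41, with 7 positive, and Syvn1 the lowest at -0.96. The 22 tested members with a promoter in the table and no ERSE had a median of 0.35, with 17 positive. Of the 10 members at an unadjusted p under 0.05, Calr and Pdia6 hold an ERSE, Herpud1 an ERSE-II and Txndc5 the 8-base core, and Ssr2 had no promoter entry.

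KO1 weighed most in these values: it was the highest of the 8 libraries for 26 of 39 members. Members above every WT library numbered 26 in KO1 (66.7%), 21 in KO2 (53.8%), 17 in KO3 (43.6%) and 10 in KO4 (25.6%). Over all genes tested, the shares above every WT library were 18.8% in KO1, 17.4% in KO2, 27.2% in KO3 and 25.8% in KO4, so KO4 was at the background share. Without KO1, 28 of the 38 members were still positive, with a median of 0.23, and 5 members had an unadjusted p under 0.05 (Pdia4, P4hb, Rpn2, Sdf2l1 and Herpud1; 2.23% of all genes tested were higher at that level). Without WT2 the number was 5 as well, with Sec61b in place of Herpud1, and without KO3 it was 14. Within lane 4, which left KO1 and KO2 against the 4 WT libraries, 33 of 38 members were positive and the median was 0.53. With all libraries the member median was 0.35. The median of all genes tested was higher within lane 4 as well, at -0.0175 against -0.14 with all libraries. The higher member median within lane 4 therefore came in part with a shift of all genes. Of all genes tested, 48.7% were positive within lane 4. There, 20 members were higher and 1, Dnajb9, lower at an unadjusted p under 0.05, against 4.95% of all genes higher, with a log2 difference of 0.82 for Hspa5, 0.98 for Calr, 1.03 for Xbp1 and 1.31 for Manf. Lane 5 held KO libraries only and gives no value of its own. Pdia4, P4hb, Rpn2 and Sdf2l1 were at an unadjusted p under 0.05 in all 18 settings run. The settings reuse the same 8 libraries and are not independent, and no share of all genes stands beside this count.

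Markers of granulocyte and monocyte progenitors moved with the ER genes. The 39 members summed to 7767, 5137, 4561 and 4221 RPKM in KO1 to KO4, against 3525, 3752, 3710 and 4146 RPKM in WT1 to WT4, with Calr making up 29.9 to 40.4% of the sum in KO and 29.7 to 33.9% in WT. The 17 myeloid marker genes in the files summed to 8205, 3843, 2999 and 2194 RPKM in KO, against 646, 1456, 1723 and 1918 RPKM in WT. KO libraries were above WT libraries in both sums, and the libraries stood in the same order in both except for WT2 and WT3. The myeloid sum rests on a few very high genes: in KO1, Mpo had 3687, Prtn3 2270 and Elane 1204 RPKM. By median level (log2 from each gene's mean over 8 libraries), KO4 lay below WT4 in both lists. The myeloid medians were -0.25 in KO4 and -0.09 in WT4, and those of the ER members -0.06 and -0.05. All 14 myeloid genes tested had positive log2 differences, with a median of 1.45 and 9 at an unadjusted p under 0.05. None of the 17 was at 0 in every library, and Ltf, Camp and S100a8, genes of mature neutrophils, were too low to be tested. Mpo (myeloperoxidase) differed by 1.52 ± 0.40, Ctsg (cathepsin G) by 1.70 ± 0.50 and Cebpa, a myeloid transcription factor, by 1.22 ± 0.36. The part of these cells in the ER differences was not tested, and in bulk RNA a larger share of a cell type and more RNA per cell cannot be told apart.

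Of 12 LSK and stem cell markers, 11 had negative log2 differences, and their sum was 608 to 790.2 RPKM in KO, against 825 to 860.4 RPKM in WT. Flt3 differed by -0.80 ± 0.23, Procr by -1.27 ± 0.38 and Mecom by -1.81 ± 0.56. The 14 B and plasma cell genes summed to 15.0 to 22.0 RPKM in KO, against 38.2 to 52.4 RPKM in WT. Jchain, the joining chain of secreted antibodies, was the highest of these genes in every WT library. Jchain had 1.88, 1.40, 0 and 5.73 RPKM in KO, against 31.2, 24.4, 26.0 and 18.3 RPKM in WT, a log2 difference of -3.29 ± 0.56. Cd79b, a B cell receptor subunit, had 14.5, 16.1, 14.9 and 6.65 RPKM in KO, against 5.51, 11.4, 4.78 and 16.3 RPKM in WT, a log2 difference of 0.50 ± 0.45. Sums of T and NK cell genes (1.31 to 8.26 RPKM in KO, 5.60 to 7.39 RPKM in WT), erythroid and megakaryocyte genes (85.8 to 188 RPKM in KO, 80.7 to 217 RPKM in WT) and stromal and endothelial genes (13.8 to 32.0 RPKM in KO, 19.2 to 33.3 RPKM in WT) overlapped between groups.

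**Figure D4:**
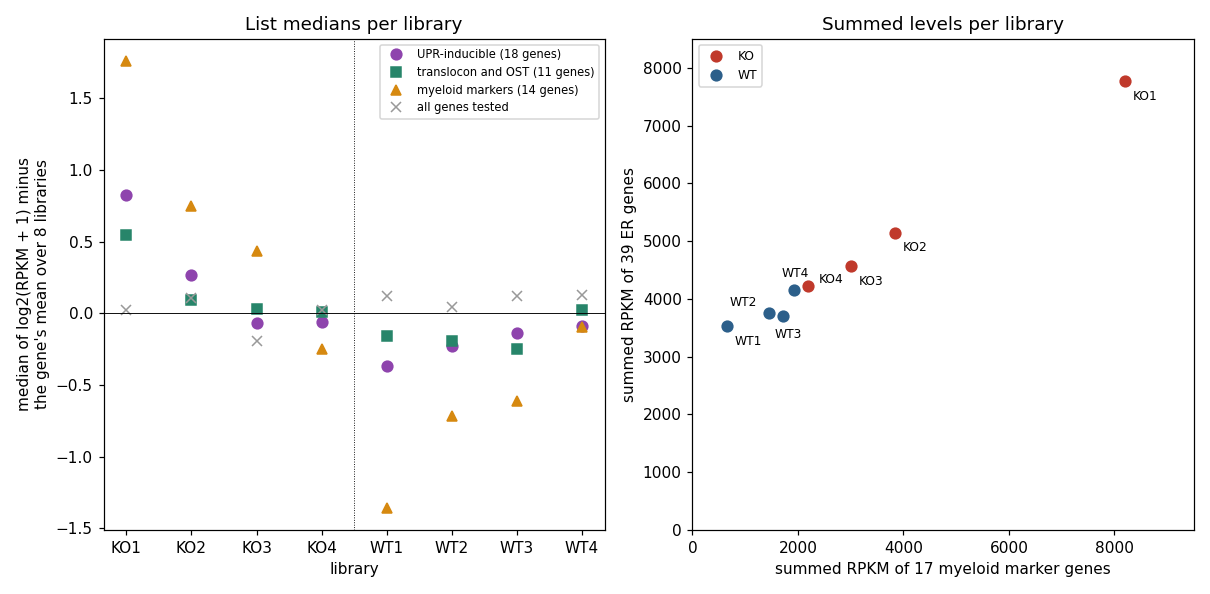
Left, the median level of unfolded protein response members, translocon and oligosaccharyltransferase (OST) members, myeloid markers and all genes tested in each library (y axis, log2 from each gene's mean over 8 libraries). Right, the summed RPKM of the 39 members (y axis) against that of the 17 myeloid marker genes (x axis) in the 4 KO libraries (red) and 4 WT libraries (blue), with KO1 at the upper right at 7767 and 8205 RPKM.

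The other genes of the system were more evenly split between higher and lower means in KO. Of 101 further ER genes in 8 lists, 92 were tested: 52 were positive and 40 negative, the median was 0.07, and at an unadjusted p under 0.05, 5 were higher and 5 lower (5.43% of 92 each way, against 2.77% higher and 4.74% lower among all genes tested). None passed the adjusted threshold (limma, smallest adjusted p = 0.420, of Atf3). The glycoprotein folding cycle, with 7 of 7 positive, had a median of 0.22. The other oligosaccharyltransferase subunits, with 7 of 10 positive, had 0.31. Oxidative folding genes, with 6 of 12 positive, had 0.03, and other chaperones and prolyl isomerases, with 4 of 13 positive, had -0.14. Other degradation genes, with 11 of 19 positive, had 0.05. Targeting, translocation and signal peptidase genes, with 10 of 17 positive, had 0.08. The cargo receptors Lman2 (0.49 ± 0.19) and Lman1 (0.61 ± 0.24) were the 2 of the folding cycle at an unadjusted p under 0.05. The glucosidase subunit Ganab differed by 0.37 ± 0.19, and Stt3b, a catalytic subunit of the oligosaccharyltransferase, by 0.39 ± 0.25. Ost4 and Krtcap2, small subunits, differed by -1.27 ± 0.86 and 0.32 ± 0.23, and Ost4 was listed at 0 in KO4, with at least 12.8 RPKM in every other library.

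The PERK and ATF4 arm, which slows translation and turns on amino acid and redox genes, was the list with the lowest median, -0.71. Of the 9 genes that passed the filter, 7 were negative, and both the count and the median include Atf3. Eif2ak3, which encodes PERK, and Asns were positive (0.39 ± 0.52 and 0.56 ± 0.55), and Atf4 differed by -0.03 ± 0.24. Atf3, a transcription factor that this arm and other stresses induce, had 0.0165, 0.504, 0 and 0 RPKM in KO, against 11.3, 4.26, 8.75 and 2.36 RPKM in WT. Atf3 passed the filter on low values, 1 RPKM in at least 4 libraries, through the WT libraries alone, so its difference of -2.61 is given as a description. Ppp1r15a (GADD34), which brings translation back, had 28.8, 47.0, 61.6 and 59.1 RPKM in KO, against 105, 61.3, 90.7 and 62.5 RPKM in WT (-0.71 ± 0.29; limma adjusted p = 0.634). Sesn2 and Ddit3 differed by -1.38 ± 0.65 and -1.09 ± 0.87, and both were listed at 0 in KO3. The other sensors and proteases were 5 of 5 positive, with Creb3 at 0.66 ± 0.54, Mbtps2, a protease that cleaves ATF6, at 0.41 ± 0.36 and Atf6b at 0.34 ± 0.49.

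Single genes in the remaining lists differed in both directions. Of the 92 further ER genes tested, 4 had every KO library above every WT library. For 3 (Atf3, Tmx1 and Fkbp7), every KO library lay below every WT library, and Atf3 passed the filter through the WT libraries alone. Among all genes tested, these shares were 2.05% above and 3.88% below. Selenos, a membrane partner of the degradation complex, had 74.9, 48.2, 85.5 and 78.9 RPKM in KO, against 38.4, 11.9, 35.9 and 37.4 RPKM in WT, without overlap (1.29 ± 0.37; limma adjusted p = 0.512). Edem2, a mannosidase of the degradation pathway, differed by 0.51 ± 0.17 without overlap, and Man1b1 differed by -1.38 ± 0.81, with 0.0118 RPKM in KO3, against 9.54 to 16.7 RPKM in the other KO libraries and 15.3 to 21.9 RPKM in WT. Cnpy3, a chaperone of Toll-like receptors, had 109, 102, 139 and 102 RPKM in KO, against 58.1, 66.6, 87.8 and 76.4 RPKM in WT, without overlap (0.65 ± 0.19; limma adjusted p = 0.515). The prolyl isomerase Fkbp7 differed by -2.28 ± 0.67 and was listed at 0 in KO3 and KO4, and the chaperone Hspa13 differed by -0.97 ± 0.72, with 0.0095 RPKM in KO4 and at least 6.63 RPKM in every other library. Among oxidative folding genes, Tmx1 and Prdx4 differed by -0.59 ± 0.21 and -0.68 ± 0.26 and Pdia5 by 1.35 ± 0.73. Of the targeting and signal peptidase genes, Spcs1 differed by 0.64 ± 0.32, Spcs3 by 0.45 ± 0.30 and Srp19 by -0.53 ± 0.37.

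**Figure D5:**
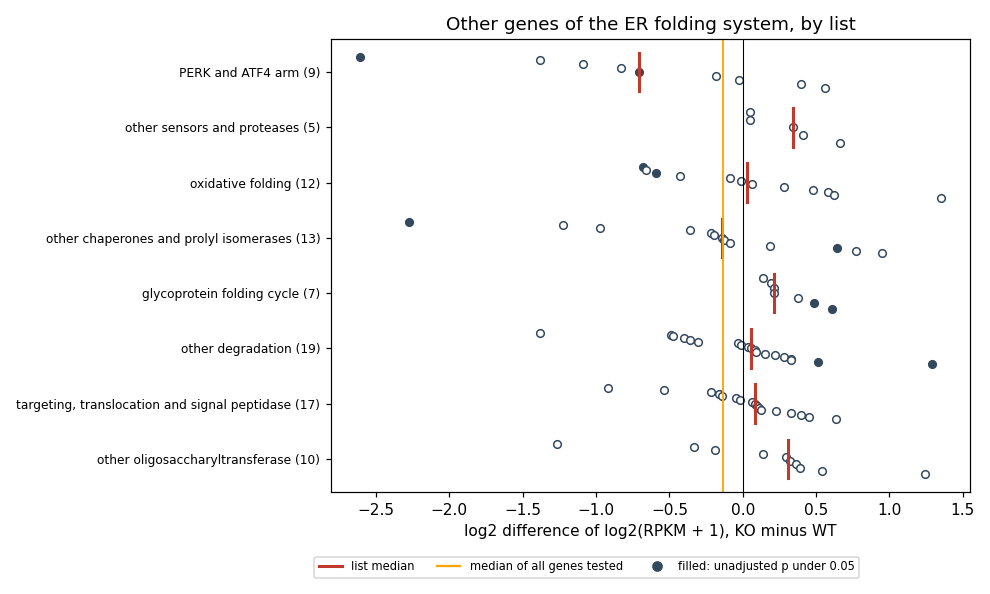
Log2 difference (x axis, KO minus WT on the log2(RPKM + 1) scale) of 92 further ER genes by list, with list medians as red bars, the median of all genes tested in orange and filled points at an unadjusted p under 0.05. List medians run from -0.71 for the PERK and ATF4 arm to 0.34 for the other sensors and proteases.

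Counting across strands limits some members. In the GENCODE annotation of GRCm38, 12 members have an exon that shares at least 50 bases with a single exon of a gene on the opposite strand: Derl2, Hsp90b1, Manf, Pdia6, Rpn1, Rpn2, Sec61a1, Sil1, Ssr2, Syvn1, Txndc11 and Txndc5. By the largest overlap of single exons, Rpn2 shares 144 bases with Mroh8, Txndc5 shares 224 bases with Bmp6, and Pdia6 shares 50 bases with Atp6v1c2. Overlaps were not added up over exons. Whether the libraries keep the strand is not given in the sources used here, so reads of such pairs cannot be told apart.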

How the data were processed

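Poly(A) RNA of sorted LSK cells was sequenced in 8 libraries, per the labels' protocols. The submitters' processing notes name TopHat and edgeR, without role or version, and the build mm9. Which tool counted reads, and with which annotation, is not given in the sources used. The values deposited by the authors are taken as RPKM, 1 per Entrez gene and library, which was inferred from the values: each value times transcript length, summed over genes, gives 1.14 to 1.17 M (M, mega) in every library. Low values were whole multiples of 1 read, within 0.03 reads, in only 39.0 to 60.0% of 49 to 95 values per library. Depth is therefore approximate, no count test was run, and no counting interval is given.

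Of 24112 gene identifiers, 24029 (99.7%) were matched to a symbol. Tests used limma 3.58.1 in R 4.3.3 on log2(RPKM + 1) of the 11276 genes that reached 1 RPKM in 4 or more libraries (linear model of genotype, eBayes with trend and robust variance, Benjamini-Hochberg adjustment over all genes tested, threshold 0.05), and 2-sided exact permutation over 70 assignments. Each difference is KO minus WT of the log2(RPKM + 1) values and understates the change of low genes. The script was tested on simulated data. Promoters came from RefSeq (GRCm38.p6), and no coordinate of the files was used.

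The members, classes and lists were chosen with earlier results of these data known, so no list was tested as a whole. All members are named, with values per library for members at an unadjusted p under 0.05, the 2 of highest level per role and Xbp1, Ern1, Atf6, Hspa5, Dnajb9 and Herpud1. Of other lists, up to 3 genes of smallest p were taken. Eif2ak3, Asns, Atf4 and Ddit3 were added to show both directions. Alternatives were other filters, a pseudocount of 0.1, quantile normalization, library weights, lane as a covariate, subsets of libraries and a replicate block. A planned look at protein motifs was not made. Ly6g and Trac, named among the markers, are not reported.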

Additional observations from a re-analysis of the deposited data

Results flagged for a closer look

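Of 88 groups of 4 libraries examined, 8 held 1 library far from the other 3 (by Dixon's criterion, the gap to the nearest library over the group's range), and chance alone marks about 1 group in 20. Pdia6 was 270.5 RPKM in KO1, against 179 to 190 RPKM in the other KO libraries. Derl3 was 3.10 RPKM in KO1, and KO2, KO3 and KO4 listed it at 0. The median level of the translocon and oligosaccharyltransferase class was 0.54 in KO1 (log2 from the mean of all libraries), against 0.01 to 0.10 in the other KO libraries. Sil1 was listed at 0 RPKM in KO4, against 17.3 to 20.2 RPKM in the other KO libraries.

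In the WT group, WT2 had the lowest level of both BiP and its cochaperone: Hspa5 was 123 RPKM there, against 169 to 173 RPKM in the other WT libraries, and Dnajb11 was 20.8 RPKM, against 31.9 to 32.2 RPKM. P4hb was 335 RPKM in WT4, against 267 to 278 RPKM in the other WT libraries. Txndc11 was 15.9 RPKM in WT1, against 8.34 to 8.56 RPKM in the other WT libraries.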

How the results depend on the processing

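Of 646 log2 differences of members under 17 alternatives, 605 kept their sign, and 27 of 38 members kept it throughout. Quantile normalization moved the median of all genes from -0.14 to 0.00 and turned Ern1 (0.03), Sec61a1 (-0.049) and Txndc11 (0.092). Library weights, which gave KO3 the lowest weight (0.137), called 164 genes and 2 members, Rpn2 (0.49, adjusted p = 0.0438) and Sdf2l1 (1.14, adjusted p = 0.0424), and 1 further ER gene, Atf3; 19 members had an unadjusted p under 0.05 (8.13% of all genes higher at that level, against 2.77%), the classes were 0.26 apart, Traf6 passed (-2.52, adjusted p = 0.00785), and Sel1l (0.033), Syvn1 (0.049), Ssr3 (-0.024), Ostc (0.064), Txndc11 (0.68) and Sil1 (0.024) turned. With lane as a covariate 17 members, and in lane 4 only 21 members, had an unadjusted p under 0.05 (2.80% and 4.95% of all genes higher), lane 4 only called 2 genes (Gem and Jchain), and both turned Syvn1 (0.10), Derl1 (0.017), Ssr3 (-0.057), Ostc (0.25), Txndc11 (0.86) and Sil1 (0.070). Without WT2, KO3 and KO4, 3 genes were called (Gem, Jchain and Emp1), 21 members had an unadjusted p under 0.05 (6.11% of all genes higher), the classes were 0.27 apart, and Sel1l (0.16), Syvn1 (0.23), Ssr3 (-0.0040), Ostc (0.32), Txndc11 (0.78) and Sil1 (0.12) turned. Leaving out 1 library at a time gave 0 to 2 genes called (Gem and Gimap6 without KO3) and 5 to 14 members with an unadjusted p under 0.05 (5 without KO1 or WT2, 14 without KO3, the 14 with no share of all genes beside it), class medians 0.0016 to 0.19 apart, and turned Ern1 (-0.15 to 0.064), Sec61a1 (-0.17 to 0.26), Ostc (-0.24 to 0.19), Creld2 (-0.23 to 0.83), Atf6 (-0.012 to 0.46), Txndc11 (-0.76 to 0.73) and Sil1 (-1.41 to 0.054). The cause was not tested. The lane covariate gave the same differences as lane 4 only, because lane 5 held KO libraries only. The filters and pseudocount changed no member's sign and none of the 10 members' sides of the unadjusted threshold. Libraries of the same number did not deviate together (correlations -0.08 to -0.04). The replicate block left 9 members with an unadjusted p under 0.05, 8 higher and Dnajb9 lower, against 2.31% of all genes higher. It left the median at 0.35. With only members above 0 in every library, chosen after seeing the data, the median was 0.40.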
